A study of Mus musculus with 6 samples.

Results

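Autophagy is the route by which a cell wraps cytoplasm, organelles or aggregates in a double membrane and delivers them to the lysosome. This account follows 39 genes of that machinery in primary mouse hepatocytes, the parenchymal cells of the liver. They were chosen by gene name, though with earlier results of these data known. The choice took every measured gene whose symbol begins with Atg and a digit, together with a list of 35 genes that spans initiation, membrane conjugation, cargo receptors and fusion with the lysosome. Of that list 29 were measured, and 10 further Atg genes brought the total to 39 of the 12393 genes with a value. Bnip3l, Calcoco1, Optn, Prkaa1, Prkaa2 and Tfe3 are on the list and were not analysed here. Each of the 3 probe sets of Bnip3l carries another gene symbol as well. No probe set was found under the symbols of the others.

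The study compared Alb/AEG-1 mice, which carry an albumin-driven transgene that raises AEG-1 (astrocyte elevated gene 1, encoded by Mtdh) in hepatocytes, with wild-type mice of the same mixed B6/CBA background. Each genotype has 3 arrays, all of untreated hepatocytes harvested after 24 h on collagen. Age, sex, the number of founder lines and whether each array is a separate animal are not stated in the labels, so p-values reflect only the spread among these arrays. The comparison asks whether AEG-1, a protein reported to induce protective autophagy, goes with other levels of the messenger RNAs of the machinery.

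The pathway begins with the ULK1 kinase complex, which AMPK activates and mTORC1 restrains. A lipid kinase complex built on Becn1 and Pik3c3 then marks the growing membrane, Atg2 and Atg9 proteins feed it with lipid, and conjugation enzymes attach LC3 and GABARAP proteins to it. Cargo receptors bind these proteins and bring in the material to be degraded, and the closed autophagosome fuses with lysosomes. In liver this turnover supplies amino acids in fasting, breaks down lipid droplets and clears damaged mitochondria. Much of its control acts on proteins, which were not measured.

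Values are RMA expression values on the log2 scale, and all differences are transgenic minus wild type. A gene was called when limma's two-sided test gave a Benjamini-Hochberg adjusted p under 0.05 over all 12393 genes. The transgene check, Mtdh at its brightest probe set, read 10.72, 10.40 and 10.81 in the transgenic arrays and 8.75, 8.78 and 8.64 in the wild-type arrays, a difference of 1.92 (SE 0.10, limma adjusted p = 2.04e-05). The other 5 Mtdh probe sets gave -0.27 to 0.24, and the mean of the 6 rose by less (0.28, limma adjusted p = 0.0116), so the size of this check rests on 1 probe set. Array medians lay between 5.61 and 5.64. The signal of the Gapdh control probe sets at the 3′ end exceeded that at the 5′ end by 0.096 to 0.11 in transgenic and 0.014 to 0.13 in wild-type arrays, so RNA integrity by this measure overlapped between the genotypes. Hepatocyte markers were high on every array, with a mean over 9 genes from 13.47 to 13.51 in transgenic and 13.46 to 13.49 in wild-type cells. Of these 9 genes 1 was called (11.1% beside 15.9% of all genes), Ahsg, higher by 0.21 (limma adjusted p = 0.0325). That call was lost on leaving out any single array (limma adjusted p up to 0.103).

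Of the 39 autophagy genes, 2 were higher and 5 lower in transgenic hepatocytes, and 32 did not pass. Atg16l1 and Bnip3 rose, and Map1lc3a, Rb1cc1, Nbr1, Atg101 and Atg3 fell. The 7 called genes are 17.9% of those measured, beside 15.9% of all genes called in this comparison. Calls of higher genes made up 6.83% of all genes and calls of lower genes 9.05%. The share among autophagy genes is therefore near the background and is not a result about them. The changes were small, from 0.21 to 0.35 on the log2 scale, or 1.16- to 1.27-fold, with a median size of 0.25 against 0.36 over all called genes. The median difference over the 39 genes was -0.0095, beside 0.010 over all genes, and 19 differences were positive and 20 negative. At its brightest probe set no autophagy gene differed by more than 0.35 in either direction, a size that 1080 genes (8.71%) exceeded.

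Groups of arrays did not overlap for 15 of the 39 genes, 7 higher and 8 lower, or 38.5% beside 34.5% of all genes, of which 16.9% were apart as higher and 17.6% as lower. Leaving out 1 array at a time, whichever of the 6 it was, reduced the called members from 7 to 2 or 3, while the share of all genes called went to between 10.2% and 13.7%. Map1lc3a alone among the 7 passed under all 15 alternatives tried. It has a single probe set, so the alternatives that average or drop probe sets left its difference unchanged. They could not challenge its call as they could those of Atg3 and Nbr1, which have 2 probe sets each. In these bulk samples fewer cells of a type and less RNA per cell cannot be told apart.

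**Figure D1:**
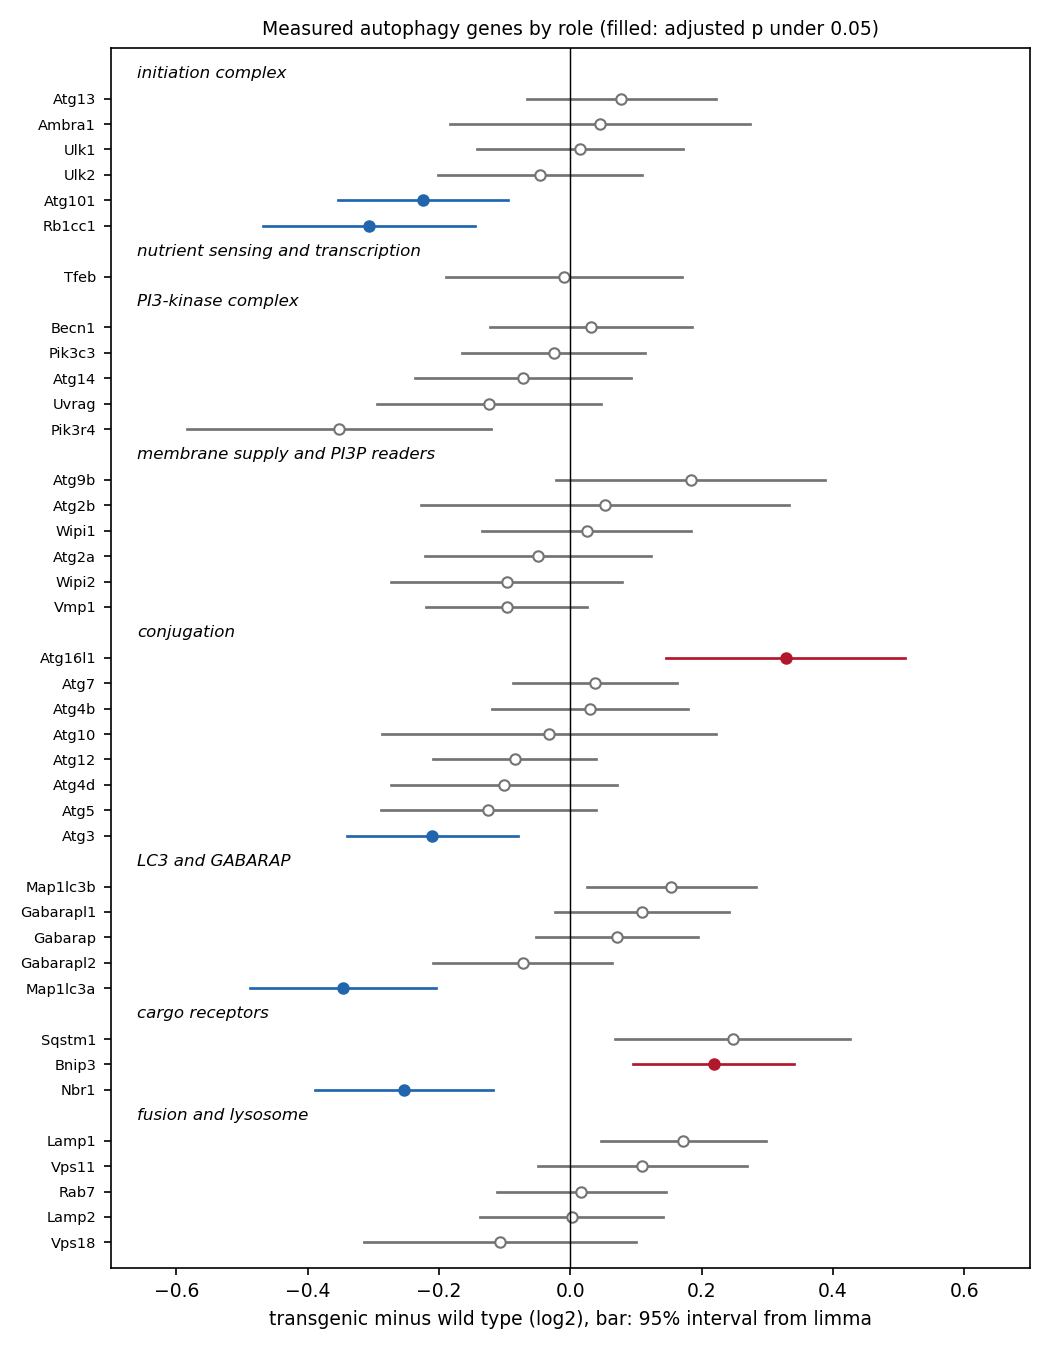
Difference between transgenic and wild-type hepatocytes (log2, horizontal axis) for each of the 39 measured autophagy genes, grouped by role, with 95% intervals from limma (n = 3 arrays per genotype). Filled points passed the threshold, red where higher and blue where lower, and the open points of the other 32 genes scatter on both sides of 0.

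Markers of other liver cells were read on the same arrays. Over all genes 6.83% were called higher and 9.05% lower. Of 12 Kupffer cell and macrophage markers 3 rose (Ptprc, Marco and C1qc) and none fell (0 by limma, and 6 of the 12 had an unadjusted p under 0.05). Their mean level ranged from 6.79 to 6.84 in transgenic and from 6.51 to 6.64 in wild-type arrays. The resident Kupffer marker Clec4f differed by 0.06 (limma adjusted p = 0.708) and did not pass. Ptprc and Marco had a mean over the arrays under the array median. Of 8 sinusoidal endothelial markers 2 rose (Clec4g and Kdr), with list means from 6.03 to 6.14 against 5.83 to 5.93. Epcam was the only 1 of 4 cholangiocyte markers called, higher by 1.52 with a mean over the arrays under the array median. Of the 4, 2 had an unadjusted p under 0.05. List means ran from 5.56 to 5.61 against 5.10 to 5.18, while Krt19 (0.36), Krt7 (-0.03) and Sox9 (-0.02) were not called. No stellate cell (0 of 8), T and NK cell (0 of 5), B cell (0 of 3) or neutrophil marker (0 of 3) passed limma, where 2, 0, 1 and 0 of them had an unadjusted p under 0.05. Calls of Marco, C1qc and Kdr were lost without wild-type replicate 2 and without at least 1 other array (adjusted p up to 0.0837). These marker names were given after their values were seen. The part of these cells in the differences below was not tested.

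The initiation complex joins the kinases Ulk1 and Ulk2 to the scaffold Rb1cc1 (FIP200) and the adaptors Atg13 and Atg101. Of the 6 genes of this group, Rb1cc1 and Atg101 were called, both lower. Over all genes 15.9% were called and 9.05% were called lower. The list had 3 positive and 3 negative differences. This list and the other lists by role below are too short to compare with these shares. Rb1cc1 read 6.80, 6.65 and 6.64 in transgenic and 7.01, 6.92 and 7.08 in wild-type hepatocytes. Every transgenic array lay below every wild-type array, with a difference of -0.31 (SE 0.07, limma adjusted p = 0.0222), or 1.24-fold lower. Atg101, which holds Atg13 in its folded state, read 6.66, 6.67 and 6.67 against 6.96, 6.88 and 6.84. Its transgenic values lay within 0.01 of each other and below all wild-type values, a difference of -0.22 (SE 0.06, limma adjusted p = 0.0314). The Atg101 call was lost on leaving out any 1 of the 6 arrays (-0.25 to -0.19, limma adjusted p up to 0.0964). The Rb1cc1 call was lost without transgenic replicate 2 or 3 or wild-type replicate 1 or 3 (-0.36 to -0.27, limma adjusted p up to 0.0775), and the mean of its 2 probe sets was lower by more (-0.50, limma adjusted p = 0.0261).

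The other 4 members of the initiation group did not pass. Ulk1, the kinase that starts the process, read 7.98, 7.90 and 7.97 in transgenic and 7.94, 8.04 and 7.83 in wild-type cells. These ranges overlapped, and the difference of 0.02 had a 95% interval of -0.14 to 0.17. Ulk2 (-0.05), Atg13 (0.08) and Ambra1 (0.05), a scaffold that ties the kinase step to Becn1, gave limma adjusted p-values from 0.468 to 0.921 together with Ulk1. Tfeb, the transcription factor that drives lysosome and autophagy genes, read 6.48, 6.42 and 6.69 against 6.49, 6.57 and 6.55. Its wild-type values fell inside the transgenic range, and the 95% interval of the difference ran from -0.19 to 0.17.

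The lipid kinase complex produces phosphatidylinositol 3-phosphate on the forming membrane, and none of its 5 measured genes passed (0 by limma, 1 at an unadjusted p under 0.05). Becn1, the subunit that regulators such as Bcl2 bind, read 9.02, 9.13 and 8.97 in transgenic and 9.07, 9.02 and 8.94 in wild-type arrays. The genotypes overlapped, with a difference of 0.03 and a 95% interval of -0.12 to 0.19. Pik3c3 (VPS34), the catalytic subunit, read 4.73, 4.71 and 4.83 against 4.80, 4.83 and 4.72, with an interval of -0.16 to 0.11, at a signal under the array median of 5.63 where values are nearer to background. Pik3r4 (VPS15), the regulatory subunit that anchors the kinase, was the exception in size. It read 5.43, 5.83 and 5.73 in transgenic and 5.99, 5.97 and 6.08 in wild-type cells, without overlap. Its difference of -0.35 was the largest of the 39 genes but missed the threshold (SE 0.10, limma adjusted p = 0.0504), with transgenic replicate 1 standing apart at 5.43. It passed without transgenic replicate 2, with array weights and with a variance trend, which passed 21.1% of all genes beside 15.9% in the main fit. On leaving out single arrays its difference ran from -0.44 to -0.24, with limma adjusted p up to 0.147. It has a single probe set, and its adjusted p also crossed the threshold, at an unchanged difference, when the other genes were averaged over theirs (-0.35, limma adjusted p = 0.0449). Uvrag (-0.12) and Atg14 (-0.07), which direct the kinase to maturing and to forming autophagosomes, had overlapping arrays and did not pass.

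Genes that supply membrane or read the lipid mark gave 0 calls among 6 by limma, and 0 at an unadjusted p under 0.05. Atg9b, a paralogue of the vesicle scramblase Atg9a, read 4.16, 4.25 and 4.16 in transgenic and 4.18, 4.01 and 3.83 in wild-type cells. The ranges overlapped at a signal under the array median, and the difference was 0.18 (limma adjusted p = 0.220). The others were Vmp1, a scramblase of the endoplasmic reticulum (-0.10), the lipid transfer genes Atg2a (-0.05) and Atg2b (0.05), and the lipid readers Wipi1 (0.02) and Wipi2 (-0.10). At its brightest probe set Vmp1 was lower in each transgenic array than in any wild-type array. Its other probe set gave 0.015 with overlapping arrays.

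The conjugation system works like ubiquitin ligation, with Atg7 as the activating enzyme, Atg3 and Atg10 as carriers, and the complex of Atg5, Atg12 and Atg16l1 as the final step that places LC3 on the membrane. Of 8 measured genes 1 rose and 1 fell, beside 6.83% of all genes called higher and 9.05% lower. Atg16l1, which recruits the complex to the membrane, read 7.66, 7.68 and 7.63 in transgenic and 7.50, 7.23 and 7.27 in wild-type cells. All transgenic values were above all wild-type values, of which wild-type replicate 1 was the highest. The difference was 0.33 (SE 0.08, limma adjusted p = 0.0274), or 1.26-fold higher. The call was lost without any 1 transgenic replicate and without wild-type replicate 2 or 3 (0.28 to 0.41, limma adjusted p up to 0.0926).

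Atg3, the carrier enzyme for LC3, read 10.77, 10.76 and 10.88 in transgenic and 11.00, 11.01 and 11.03 in wild-type hepatocytes. The genotypes did not overlap, and transgenic replicate 3 lay closest to the wild-type arrays. The difference was -0.21 (SE 0.06, limma adjusted p = 0.0413). The call was lost under 8 alternatives, among them leaving out any array other than transgenic replicate 3 (-0.25 to -0.19, limma adjusted p up to 0.136), and the mean of its 2 probe sets had the opposite sign, at 0.039 (limma adjusted p = 0.809). Its dimmer probe set, at a mean of 4.55, gave 0.29.

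The remaining 6 conjugation genes did not pass at their brightest probe sets. Atg5 read 8.13, 8.16 and 8.22 in transgenic and 8.25, 8.21 and 8.43 in wild-type cells, and its partner Atg12 read 8.43, 8.52 and 8.44 against 8.56, 8.52 and 8.56. Atg5 overlapped between genotypes and had a 95% interval of -0.29 to 0.04, while Atg12 did not overlap before rounding and differed by only -0.08, with an interval of -0.21 to 0.04. The protease genes Atg4b (0.03) and Atg4d (-0.10), which trim LC3 before and after use, and the Atg12 carrier Atg10 (-0.03) had limma adjusted p-values of 0.811, 0.428 and 0.890.

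Atg7 gave different answers by probe set. Its brightest read 7.25, 7.27 and 7.20 in transgenic and 7.16, 7.24 and 7.20 in wild-type cells, a difference of 0.04 with a 95% interval of -0.09 to 0.16. The 2 genotypes overlapped there. The dimmest of the 3, at a mean of 6.89, read 6.66, 6.60 and 6.55 against 7.19, 7.22 and 7.13, with every transgenic array lower. That difference was -0.58 (SE 0.06, limma adjusted p = 6.53e-04 when all probe sets were tested). The remaining one gave -0.28 (limma adjusted p = 0.0731), and the mean of the 3 gave -0.27 (limma adjusted p = 0.0103), which would be a call in the other direction. Which part of the transcript each probe set reads was not analysed here.

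**Figure D2:**
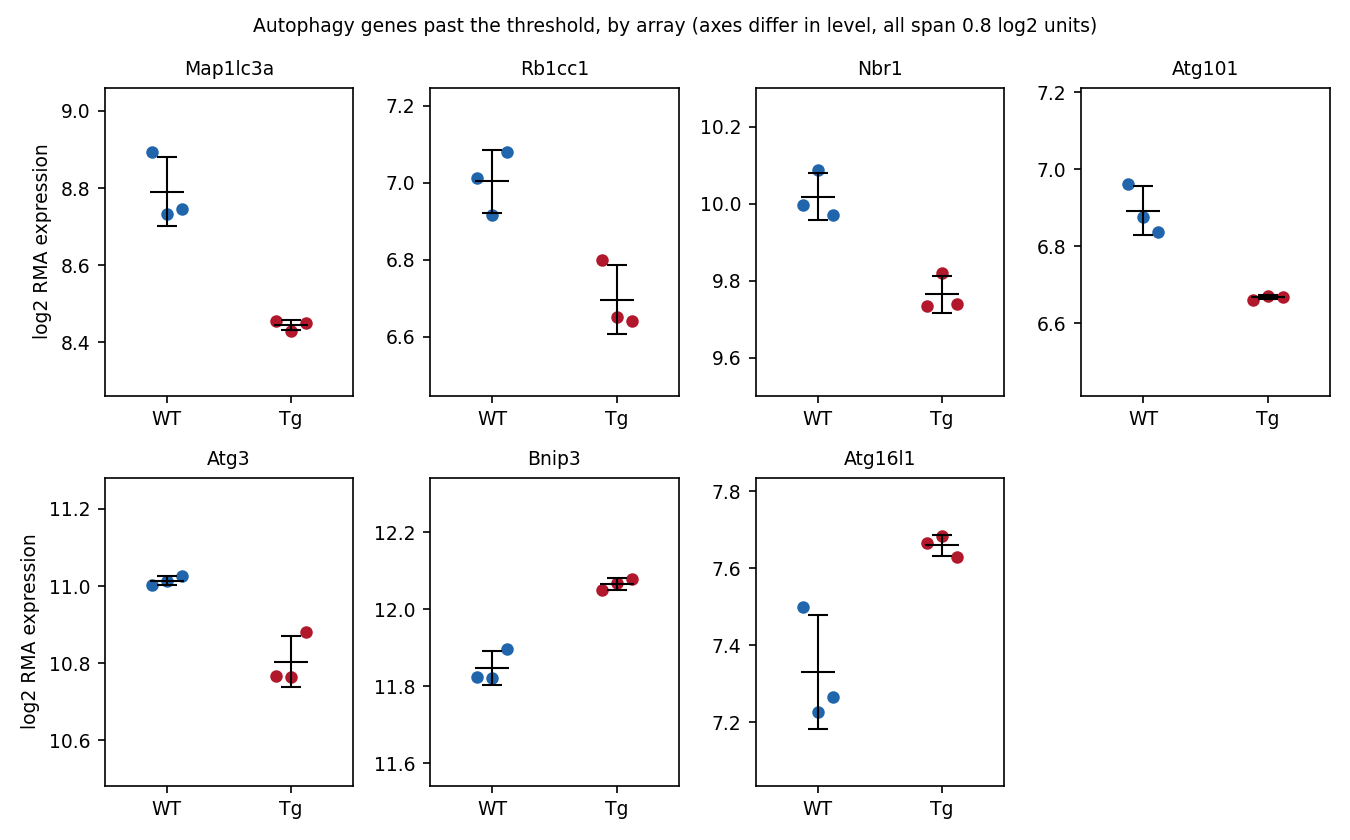
Log2 RMA expression (vertical axis) of the 7 called autophagy genes on each array, wild type (WT) in blue and transgenic (Tg) in red, with the mean and SD in black (n = 3 per genotype). The genotypes are separate in every panel, by differences of 0.21 to 0.35, and all axes span 0.8 log2 units.

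LC3 and GABARAP proteins are the ubiquitin-like tags on the membrane. Of the 5 genes 1 fell and 4 did not pass, beside 9.05% of all genes called lower. Map1lc3a read 8.46, 8.43 and 8.45 in transgenic and 8.89, 8.73 and 8.75 in wild-type cells. The transgenic arrays agreed closely and lay below all wild-type arrays. The difference was -0.35 (SE 0.06, limma adjusted p = 0.00768), or 1.27-fold lower, and adjusted p-values stayed between 0.000281 and 0.0300 over the 15 alternatives. Map1lc3b, the form most used as an autophagosome marker, read 11.58, 11.53 and 11.48 against 11.32, 11.40 and 11.40. Its transgenic arrays were all above the wild-type arrays, with a difference of 0.15 (95% interval 0.02 to 0.28, limma adjusted p = 0.109) that missed the threshold. It passed with a variance trend, among genes above the median level and as the mean of its 4 probe sets. The first 2 of these settings passed 21.1% and 37.2% of all genes they tested, beside 15.9% in the main fit. On leaving out single arrays it never passed (0.13 to 0.18, limma adjusted p up to 0.285). The 2 next probe sets of Map1lc3b gave 0.28 and 0.33, and the dimmest, at a mean of 4.29, gave -0.01.

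In the GABARAP branch, which acts mostly in later maturation, 0 of 3 genes passed by limma and 0 had an unadjusted p under 0.05. Gabarapl1 read 11.37, 11.44 and 11.34 in transgenic and 11.34, 11.25 and 11.24 in wild-type cells, just without overlap, a difference of 0.11 (95% interval -0.02 to 0.24). Gabarap differed by 0.07 and Gabarapl2 by -0.07, the former without overlap.

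Cargo receptors link material to LC3. Of 3 measured receptors 1 rose, 1 fell and 1 missed the threshold, and none had overlapping groups. Over all genes 15.9% were called and 34.5% had groups that did not overlap. A list of 3 genes is too short to compare with these shares. Bnip3, a mitochondrial receptor known to respond to low oxygen, read 12.05, 12.07 and 12.08 in transgenic and 11.82, 11.82 and 11.90 in wild-type cells. Replicates were tight in both genotypes, and the difference was 0.22 (SE 0.05, limma adjusted p = 0.0287), or 1.16-fold higher. The call was lost without any 1 array other than wild-type replicate 3 (0.20 to 0.24, limma adjusted p up to 0.0839). Nbr1, a receptor for ubiquitinated cargo and peroxisomes, read 9.73, 9.82 and 9.74 against 10.00, 10.09 and 9.97. All transgenic values were lower, with a difference of -0.25 (SE 0.06, limma adjusted p = 0.0236). The other Nbr1 probe set gave -0.08, the mean of both was not called (-0.17, limma adjusted p = 0.113), and the call was also lost without transgenic replicate 1 or 3 or wild-type replicate 2 (-0.28 to -0.22, limma adjusted p up to 0.0862).

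Sqstm1 (p62), the receptor that aggregates with ubiquitinated protein and is itself a target of NRF2, read 11.52, 11.60 and 11.39 in transgenic and 11.35, 11.27 and 11.15 in wild-type hepatocytes. Its lowest transgenic value was just above its highest wild-type value. The difference of 0.25 (SE 0.08, 95% interval 0.07 to 0.43) missed the threshold at a limma adjusted p of 0.0687. It passed with array weights, with a variance trend and among genes above the median level.

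None of the 5 genes of fusion and the lysosomal membrane passed (0 by limma, 1 at an unadjusted p under 0.05). Lamp1, an abundant glycoprotein of the lysosomal membrane, read 12.38, 12.40 and 12.36 in transgenic and 12.25, 12.23 and 12.15 in wild-type cells. The groups did not overlap, and the difference of 0.17 (95% interval 0.05 to 0.30) had a limma adjusted p of 0.0711. Lamp2, which is needed for fusion and for import of single proteins, read 12.35, 12.35 and 12.38 against 12.38, 12.27 and 12.43, with the transgenic values inside the wild-type range and an interval of -0.14 to 0.14. Rab7, the GTPase of late endosomes (0.02), and the tethering subunits Vps11 (0.11) and Vps18 (-0.11) did not pass either.

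Among the 32 genes that were not called, 21 differed by less than 0.1 in either direction, and 27 had a 95% interval wholly within 0.3 of 0. The widest intervals reached -0.58, for Pik3r4, and 0.43, for Sqstm1. Missing the threshold does not show that a gene was the same in both genotypes.

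Of the 39 genes 20 have several probe sets, 73 probe sets in all for the 39. When every probe set on the array was tested, 2 of the 73 were higher and 5 lower, or 9.59% beside 12.6% of all 20380 single-symbol probe sets, of which 5.56% were higher and 7.05% lower. Probe sets of 1 gene differed in sign for 12 of the 20 genes. Becn1 showed little spread, with its 4 probe sets between -0.07 and 0.04, and the 3 probe sets of Atg5 all lay on the negative side, from -0.18 to -0.12. The dimmer probe set of Rb1cc1 gave -0.68 at a mean signal of 3.56, the same sign as the brighter one, and did not pass (limma adjusted p = 0.102).

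**Figure D3:**
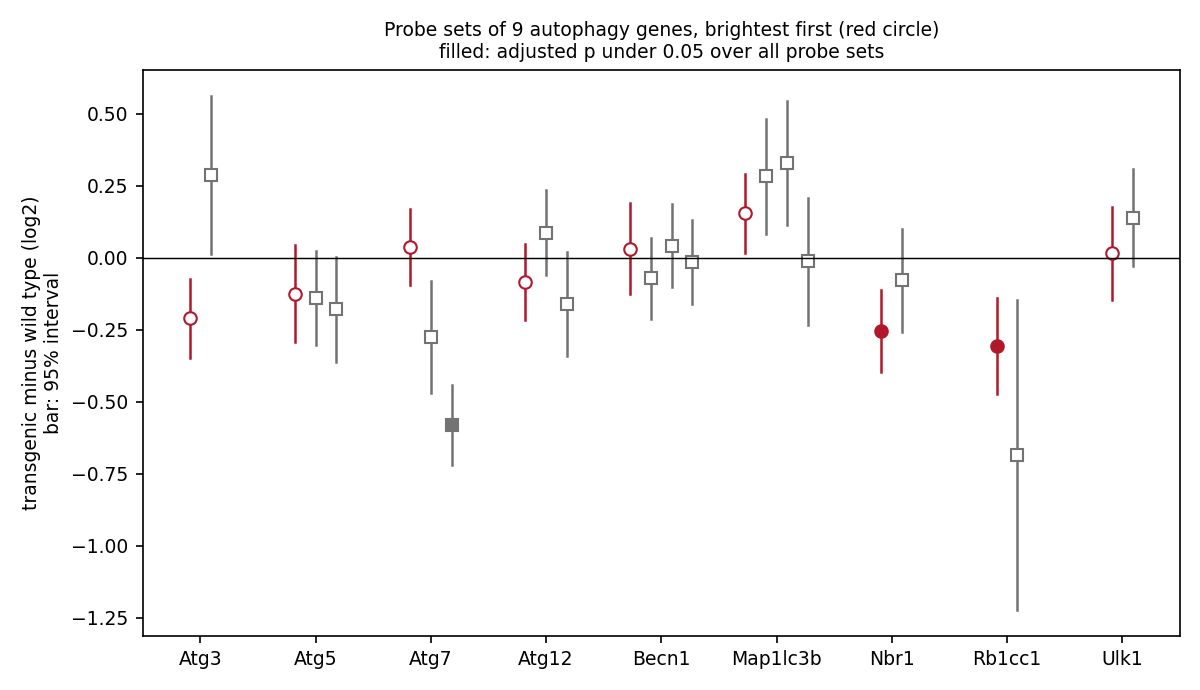
Difference between transgenic and wild-type hepatocytes (log2, vertical axis) for each probe set of 9 autophagy genes, with the brightest as a red circle, the others as grey squares and 95% intervals as bars (n = 3 arrays per genotype). Filled symbols passed the threshold when all probe sets were tested, and Atg7 shows 1 filled grey square at -0.58 beside a red circle near 0.

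TFEB and TFE3 bind an E-box of 6 letters, CACGTG, found at many lysosomal and autophagy genes in a longer palindrome, and MYC, USF and other factors of their class bind the same letters. Promoter windows of RefSeq genes (GRCm38.p6, 250 bases before to 50 after the start) were searched for CACGTG and for TCACGTGA, which contains it. Both motifs read the same on either strand. Windows were matched by symbol for 32 of the 39 genes. CACGTG was found for 6 of these 32 genes (Atg3, Atg5, Atg7, Atg14, Bnip3 and Lamp1), in 6 of their 38 windows (15.8%), beside 2349 of all 32851 windows (7.15%). TCACGTGA was found for Atg3 alone among the 32, beside 0.974% of all windows. Of the 6 genes with the E-box, Bnip3 rose, Atg3 fell and the other 4 did not pass.

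The sequences of 3 promoters, chosen from the 6 genes with the E-box by their differences at the brightest probe set, are shown. Atg3 was called lower there and Bnip3 higher, while Lamp1 was higher without passing (0.17, limma adjusted p = 0.0711). The mean of the 2 Atg3 probe sets had the opposite sign (0.039, limma adjusted p = 0.809), so its direction is not settled. Atg5, Atg7 and Atg14 also hold CACGTG, were not called and are not among the 3. Each sequence is the 250 bases before the start on the gene's strand, 5′ to 3′, with CACGTG in capitals. Atg3 lies on the plus strand at chr16:45158579-45158828, Bnip3 on the minus strand at chr7:138909507-138909756 and Lamp1 on the plus strand at chr8:13158911-13159160.
Atg3: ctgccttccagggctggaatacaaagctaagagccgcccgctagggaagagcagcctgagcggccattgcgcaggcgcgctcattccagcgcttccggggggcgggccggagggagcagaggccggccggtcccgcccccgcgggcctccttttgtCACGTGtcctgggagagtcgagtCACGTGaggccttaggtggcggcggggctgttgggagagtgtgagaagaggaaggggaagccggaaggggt
Bnip3: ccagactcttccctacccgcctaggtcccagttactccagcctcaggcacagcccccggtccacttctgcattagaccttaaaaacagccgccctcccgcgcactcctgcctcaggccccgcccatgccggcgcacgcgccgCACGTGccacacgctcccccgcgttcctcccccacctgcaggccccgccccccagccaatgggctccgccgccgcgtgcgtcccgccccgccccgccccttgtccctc
Lamp1: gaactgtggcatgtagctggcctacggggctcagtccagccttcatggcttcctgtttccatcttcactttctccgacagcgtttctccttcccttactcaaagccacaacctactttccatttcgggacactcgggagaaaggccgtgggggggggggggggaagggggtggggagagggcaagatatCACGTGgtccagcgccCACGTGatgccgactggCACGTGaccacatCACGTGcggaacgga

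The Lamp1 window holds 4 copies, whose first bases lie 61, 45, 28 and 15 bases before the start. Atg3 holds 2 copies, at 94 and 71 bases before the start, of which the second is the longer palindrome. Bnip3 holds 1, at 108 bases. A match is a description of the letters and shows no binding.

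Genes around the machinery were read from 4 further lists. Of 39 other measured autophagy genes (regulators, tethers and receptors outside the 39 above), 2 rose and 9 fell, or 28.2% beside 15.9% of all genes, with a list median of -0.012. Trp53inp1, a p53-induced protein that binds LC3, read 10.78, 10.82 and 10.88 in transgenic and 11.28, 11.41 and 11.46 in wild-type cells. It was lower on every transgenic array, by 0.56 (SE 0.07, limma adjusted p = 0.00110), and passed under all 15 alternatives. Nrbf2, a subunit of the lipid kinase complex with Atg14, read 8.08, 8.17 and 8.16 against 8.46, 8.62 and 8.56. It fell by 0.41 (SE 0.06, limma adjusted p = 0.00396). Fyco1, which couples autophagosomes to microtubule motors, fell by 0.34 (limma adjusted p = 0.00635).

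Bcl2l1 (BCL-XL), an inhibitor of cell death that binds Becn1, read 10.04, 9.90 and 9.93 in transgenic and 9.52, 9.51 and 9.56 in wild-type cells. It was higher on every transgenic array, by 0.42 (SE 0.06, limma adjusted p = 0.00231), although the mean of its probe sets gave 0.15 (limma adjusted p = 0.149). The other calls of this list, named after their values were seen, were a rise of Wdr45b (0.25), a lipid reader, and decreases of the ferritin receptor Ncoa4 (-0.27), Rab33b (-0.31), the fusion protein gene Vamp8 (-0.24), the deacetylase Sirt1 (-0.30), Usp10 (-0.30) and the receptor Tax1bp1 (-0.23). The Rab33b call held under all 15 alternatives, though with a single probe set those that average or drop probe sets left its difference unchanged. The Ncoa4 call was lost without transgenic replicate 1 (limma adjusted p = 0.0548) and as the mean of its probe sets (-0.21, limma adjusted p = 0.0890). Each of the other 5 was lost without wild-type replicate 2 or 3 and without at least 2 transgenic replicates (adjusted p up to 0.130). The Tax1bp1 call was also lost as the mean of its probe sets (-0.18, limma adjusted p = 0.0569), with array medians subtracted and with every probe set tested, and the Usp10 call on quantile normalization (-0.26, limma adjusted p = 0.0512).

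Of 29 genes that control mTORC1 and AMPK, 5 rose and 3 fell, or 27.6% beside 15.9% of all genes, with a list median of 0.021. Over all genes 6.83% were called higher and 9.05% lower. Rraga, a GTPase that brings mTORC1 to the lysosome, read 8.73, 8.73 and 8.72 in transgenic and 8.99, 9.01 and 8.97 in wild-type cells. The groups were far apart for their spread, and the difference was -0.26 (SE 0.05, limma adjusted p = 0.0110). Sesn3, a sestrin that restrains mTORC1, fell by 0.35 (limma adjusted p = 0.0122). Eif4ebp1, a translation repressor that mTORC1 phosphorylates, rose by 0.31 (limma adjusted p = 0.0267), and Deptor, an inhibitor bound to mTOR, rose by 0.22 (limma adjusted p = 0.0269). The Eif4ebp1 call was lost without any array other than transgenic replicate 2 (0.27 to 0.38, limma adjusted p up to 0.0885). The Deptor call was lost without any other than wild-type replicate 2 (0.20 to 0.24, limma adjusted p up to 0.0907). Those of Rraga and Sesn3 held under all 15 alternatives. Both have a single probe set, so the alternatives that average or drop probe sets left their differences unchanged. Named after their values were seen, Lamtor1 (0.23), Lamtor3 (0.21) and Nprl3 (0.23) also rose and Foxo1 (-0.34), a transcription factor of fasting, fell. Each of these 4 calls was lost without any transgenic replicate and without wild-type replicate 2 or 3 (adjusted p up to 0.140), and that of Lamtor3 also without wild-type replicate 1. The Foxo1 difference was smaller and not called as the mean of its probe sets (-0.17, limma adjusted p = 0.0711) and without probe sets that match several transcripts (-0.19, limma adjusted p = 0.113). Its call was also lost on quantile normalization (-0.30, limma adjusted p = 0.0571) and with array medians subtracted (-0.32, limma adjusted p = 0.0532). With every probe set tested the calls of Lamtor3 and Nprl3 were lost, and that of Lamtor3 also without probe sets that match several transcripts (0.21, limma adjusted p = 0.0525).

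Lysosomes degrade what autophagosomes deliver. Of 31 of their enzymes and membrane proteins 1 rose and 2 fell, or 9.68% beside 15.9%, with a list median of 0.019. Ctsf, a cysteine protease, rose by 0.38 (SE 0.07, limma adjusted p = 0.00706). Lipa, the lysosomal acid lipase, fell by 0.24 (limma adjusted p = 0.0177) and Gusb, the beta-glucuronidase, by 0.31 (limma adjusted p = 0.0254). The Lipa call was lost without transgenic replicate 1 or 3 or wild-type replicate 3 (-0.25 to -0.22, limma adjusted p up to 0.0639), and the Gusb call without any array other than transgenic replicate 2 (-0.37 to -0.27, limma adjusted p up to 0.0886). Gusb was also not called as the mean of its probe sets, where the difference was smaller (-0.17, limma adjusted p = 0.0766), or on quantile normalization (-0.26, limma adjusted p = 0.0522). Of 17 subunits of the proton pump 1 rose, or 5.88% beside 15.9% of all genes, with a list median of 0.067. It was Atp6v0e2, at 5.41, 4.73 and 5.46 against 4.56, 3.89 and 4.24, with wide spread and a signal under the array median (limma adjusted p = 0.0216). That call was lost without transgenic replicate 1 or 3 or wild-type replicate 2 or 3 (0.81 to 1.21, limma adjusted p up to 0.0757).

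**Figure D4:**
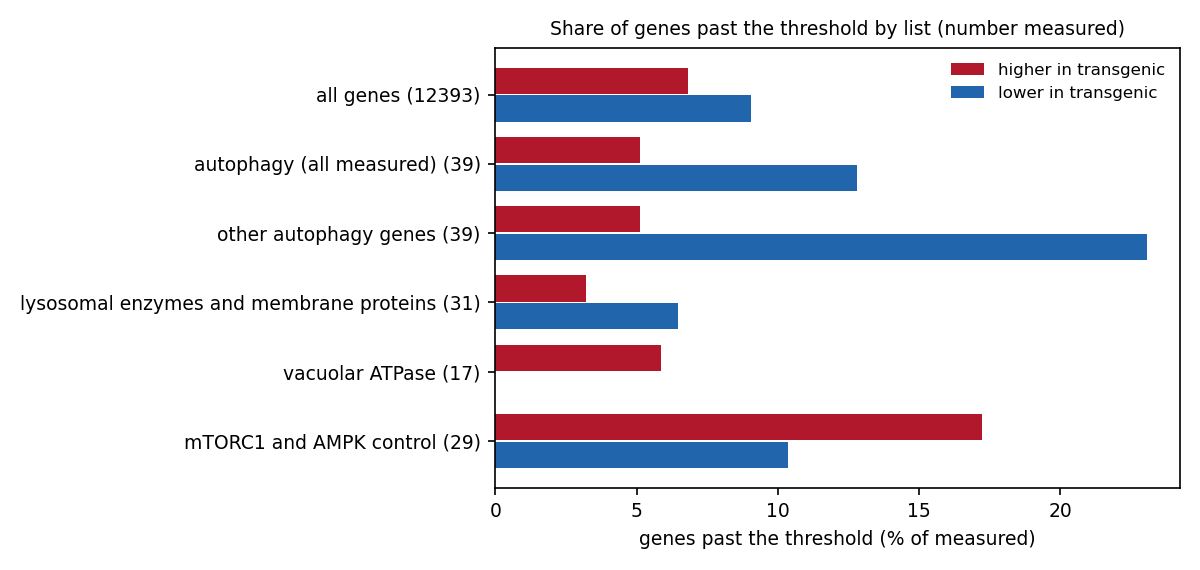
Share of measured genes past the threshold (percent, horizontal axis) in each list and over all genes, red for higher and blue for lower in transgenic hepatocytes, with the number measured in brackets. The 39 autophagy genes sit near the bars of all genes. The proton pump list of 17 genes is short, so its missing bar for lower genes says little.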

How the data were processed

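Expression was measured on 6 Affymetrix arrays, 3 for each genotype. The authors deposited log2 values for each probe set. They were made with RMA in Affymetrix software (Expression Console), as the submitters' processing notes record. RMA equalises the distribution of values between arrays, so a change shared by most genes would not be seen. Its version is not given in the sources used, and detection calls were not used here. Of 22690 probe sets 64 are controls, 20380 carry 1 gene symbol in the platform annotation, 691 carry several and 1555 none. Each gene took its brightest single-symbol probe set (mean over 6 arrays), giving 12393 genes.

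Genotypes were compared with limma (version 3.58.1, R 4.3.3, with tables read by data.table, version 1.17.8, lmFit and eBayes), two-sided, with Benjamini-Hochberg adjustment over all genes and a threshold of 0.05. The number of arrays limits the precision. Members and lists were chosen with earlier results of these data known. Named with values are the called members, 13 core genes whatever their values (Prkaa1 was not analysed), the 5 uncalled members with the smallest p, the called genes of each further list with the smallest p (up to 4), and Mtdh. Same-numbered arrays of the genotypes showed little shared deviation (correlations across genes of -0.010, -0.0097 and 0.10). With so few arrays this cannot decide whether the numbers pair the samples, and the labels do not say. Alternatives changed the representation of genes, scaling, filter, variance model and arrays used.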

Additional observations from a re-analysis of the deposited data

How the results depend on the processing

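Results were recomputed under 15 alternatives, of which 1, testing every probe set, was chosen after seeing the data. Filters removed Pik3r4 from 2 of them and Ambra1, Pik3c3, Atg9b, Atg2b, Atg10 and Vps18 from 1 each. Autophagy genes called higher numbered 2, and 5 among genes above the median level (where 10 of 32 members and 37.2% of genes passed), 5 with a variance trend (11 of 39 members, 21.1% of genes), 1 with the replicate block and 0 to 1 on leaving out single arrays. Autophagy genes called lower numbered 5, and 3 with the replicate block and 2 to 3 on leaving out single arrays. Both kinds of fit have fewer residual degrees of freedom. With the replicate block 4 of the 7 called genes remained (Atg101, Atg3 and Bnip3 were lost) and 1505 genes passed in all. The block also lost the calls of Wdr45b, Vamp8, Eif4ebp1, Deptor, Lamtor1, Lamtor3, Nprl3, Foxo1, Gusb, Kdr and Ahsg. Genes called over the whole array numbered 1967, and 1267 to 1700 on leaving out single arrays, the lowest without transgenic replicate 1. The median difference of the autophagy genes was -0.0095, and on leaving out single arrays it ran from -0.048 (without wild-type replicate 3) to 4.33e-06. The other counts of higher and lower autophagy genes stayed within 1.5 times these values. Averaging the probe sets of a gene turned Atg3 to 0.039, since its dimmer probe set was positive, and Atg7 to -0.27, since its 2 dimmer probe sets were negative. It moved the called genes Rb1cc1, Nbr1, Bcl2l1, Foxo1, Gusb, Clec4g and Mtdh by over 1.5 times. Of the 7 called members 1 kept its call under all 15 alternatives, and of the 32 uncalled ones 28 passed the threshold in their own direction under none of those that gave them a value. The exceptions were Pik3r4, Map1lc3b, Sqstm1 and Lamp1. Signal nearer to background limits Pik3c3, Atg9b, Atg2b and Vps18, whose mean over the arrays lay under the array median of 5.63.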
